A study of Mus musculus with 12 samples.

Results

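Wdfy1, its 3 paralogs Wdfy2, Wdfy3 and Wdfy4, the Toll-like receptors Tlr3 and Tlr4, and the receptors' adaptor Ticam1 were followed across 12 RNA-seq libraries of the mouse medial prefrontal cortex (mPFC), a cortical area known for its part in the unpleasantness of pain. These 7 genes were taken by their symbols from a table of 34745 genes. Wdfy1 was picked because, in these same libraries, it differed most steadily between injured and naive mice, and the other genes were added as its paralogs and as the receptors and adaptor it serves. All 7 passed the filter on low counts, which 15808 genes passed in all. Because Wdfy1 was chosen on the contrast of injured with naive mice, its values there are a description and carry no test; the other 6 genes were tested.

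The mice were wild type (WT) and male, and the labels give no strain and no age. Chronic constriction injury (CCI), in which loose ties around the sciatic nerve cause lasting pain, had been carried out in one set of mice, and tissue was taken on day 28. From CCI mice, 4 libraries came from the right mPFC, labelled contralateral, and 4 from the left mPFC, labelled ipsilateral. A further 4 came from the mPFC of naive mice on day 28 of habituation, for which the labels name no hemisphere. No sham-operated mice were analysed here, so the ligature cannot be told apart from anaesthesia and surgery. The CCI libraries carry numbers 1 to 4 with a left and a right library each; the labels do not state that these come from 1 mouse. Nothing in the labels says whether each library came from a separate animal, and p-values measure the spread between these samples, which may in part be technical.

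Proteins of this family are defined by WD repeats, and most carry a FYVE domain, a zinc finger that binds phosphatidylinositol 3-phosphate on early endosomes. WDFY1 is known from mouse and human cells to bring TRIF, the protein that Ticam1 encodes, to Toll-like receptors 3 and 4, and so to favour the interferon and inflammatory genes that TRIF turns on. Toll-like receptor 3 recognises double-stranded RNA inside endosomes, and Toll-like receptor 4 recognises lipopolysaccharide at the cell surface and is then carried into endosomes, where TRIF takes over from MyD88. In the brain these receptors are best known from microglia and astrocytes, and Toll-like receptor signalling in glia has been studied widely in neuropathic pain.

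Wdfy1 (ENSMUSG00000073643) lies on the minus strand of chromosome 1 (chr1:79702262-79776143, GRCm38). In the GENCODE M21 annotation of that build its reference transcript has 12 exons and 4551 bases. Exons 4, 5 and 6, all coding, occur in the genome a second time with identical sequence, 7442 bases away inside the same gene. Together they make up 319 bases, or 7.01% of the transcript, and 4 of the 14 annotated transcripts of Wdfy1 have identical sequence. A read lying wholly within these exons can be placed at either copy, and how the authors treated reads with several placements is not given in the sources used here. The exons are shown because they are the stretch where the genome cannot say which copy gave a Wdfy1 read, and exon 4 (chr1:79729656-79729710) is set against the aligned coding stretch of Wdfy2-201 on chromosome 14, plus strand, with capitals at the bases that differ.
Wdfy1 exon 4: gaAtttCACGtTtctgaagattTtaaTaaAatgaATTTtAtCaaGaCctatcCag
Wdfy2 aligned: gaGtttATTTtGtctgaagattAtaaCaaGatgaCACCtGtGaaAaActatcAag
Wdfy1 exon 5: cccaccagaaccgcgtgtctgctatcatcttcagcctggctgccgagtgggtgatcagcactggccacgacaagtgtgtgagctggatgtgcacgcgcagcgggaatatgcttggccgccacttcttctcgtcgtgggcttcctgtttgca
Wdfy1 exon 6: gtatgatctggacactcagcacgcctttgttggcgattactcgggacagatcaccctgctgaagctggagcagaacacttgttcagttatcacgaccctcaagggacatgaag

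In exon 4 the genes differ from each other at 18 of 55 bases. Over the 1188 aligned bases of their coding sequences Wdfy1 and Wdfy2 were 67.3% identical, and the longest identical run was 20 bases. Against the transcripts of all other genes, 64 bases of the Wdfy1 transcript (1.41%) lay in runs of at least 50 bases that are also found elsewhere, the longest being 61 bases shared with Stat3. Of the Wdfy2 transcript 245 bases (3.69%) were shared in this way, and of the other 5 genes none.

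Wdfy1 had 54.9, 34.8, 38.4 and 49.7 CPM (counts per M counts of the library, scaled by TMM factors) in contralateral libraries 1 to 4. In ipsilateral libraries 1 to 4 it had 52.0, 39.1, 38.4 and 50.2 CPM, and in naive libraries 1 to 4 it had 22.6, 22.5, 19.9 and 22.8 CPM. All 8 CCI libraries stood above all 4 naive libraries, with a gap between 34.8 CPM, the lowest CCI value, and 22.8 CPM, the highest naive value. The raw counts behind these values ran from 557 to 1001 in contralateral libraries, from 668 to 911 in ipsilateral libraries and from 333 to 405 in naive libraries.

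**Figure D1:**
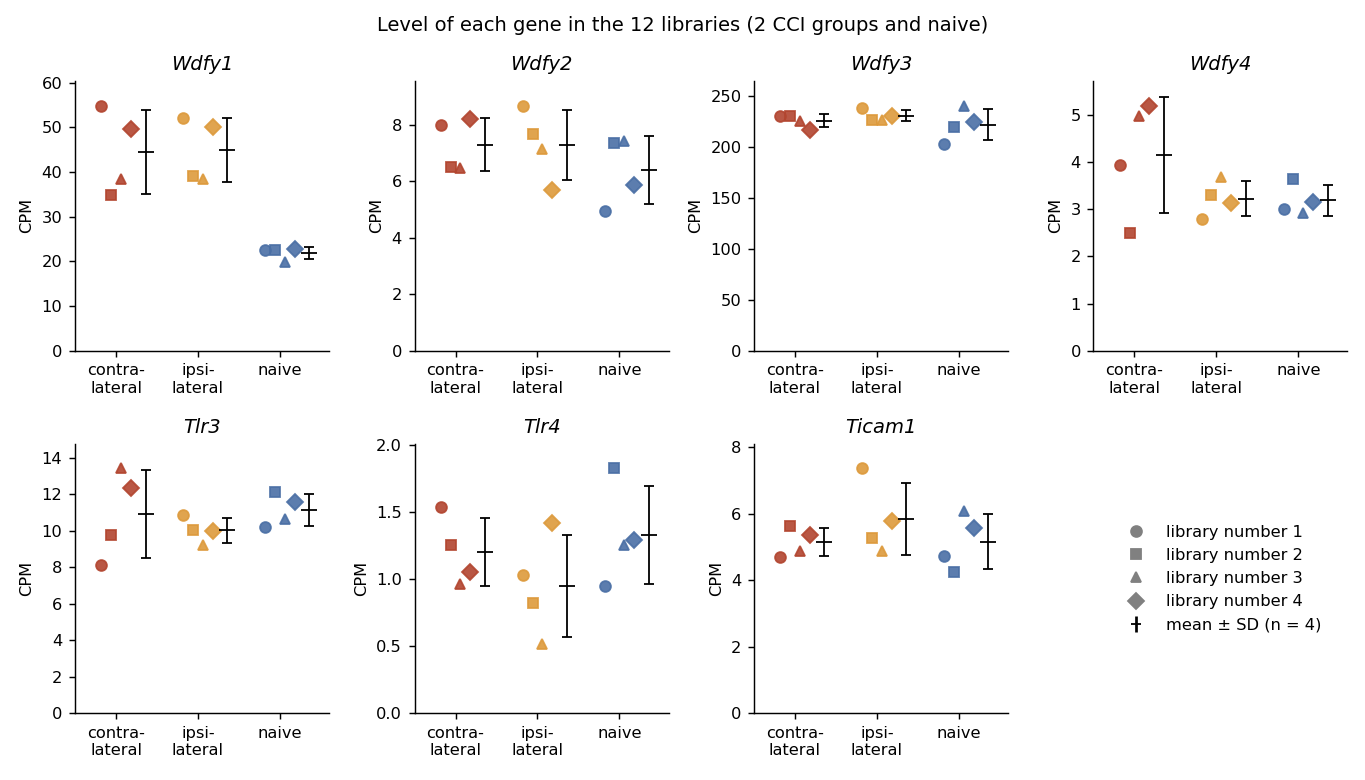
Level in CPM (linear axes from 0, 1 panel per gene) of the 7 genes in contralateral CCI, ipsilateral CCI and naive libraries; each point is a library, the marker shape gives its number, and bars are mean ± SD (n = 4 per group). For Wdfy1 the CCI libraries sit between 34.8 and 54.9 CPM and the naive libraries between 19.9 and 22.8 CPM, while for the other 6 genes the groups overlap.

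The means were 44.5 ± 9.42 CPM in contralateral, 44.9 ± 7.17 CPM in ipsilateral and 21.9 ± 1.36 CPM in naive ones (SD, n = 4 each). The fitted log2 fold change against naive was 1.02 (SE 0.15) on the contralateral side and 1.03 (SE 0.15) on the ipsilateral side, and 1.03 (SE 0.12) with both sides of each CCI number summed; this is a 2.03-fold, a 2.05-fold and a 2.04-fold higher level. The contrasts with naive share the 4 naive libraries. Of the 15808 genes, 63 (0.399%) had all 8 CCI libraries on one side of all 4 naive libraries and 20 (0.127%) had all of them higher. Among those 20, none had a wider gap on the log2 scale than Wdfy1, with 0.61, which restates how the gene was chosen.

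The spread within CCI mice was also large. Libraries of CCI numbers 1 and 4 lay between 49.7 and 54.9 CPM on both sides, and those of numbers 2 and 3 between 34.8 and 39.1 CPM. The coefficient of variation was 17.3% over the 8 CCI libraries, against 6.21% over the 4 naive libraries. Leaving out each library in turn kept the contralateral log2 fold change between 0.90 and 1.12 and the ipsilateral one between 0.96 and 1.11.

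Wdfy1 was chosen for a steady difference from naive in these same CCI libraries, and such a choice favours a small difference between the hemispheres. Between the hemispheres of CCI mice Wdfy1 did not pass the test, a result that is not independent of that choice. Its contralateral over ipsilateral log2 fold change was -0.01 (95% interval -0.32 to 0.30, adjusted p = 0.982, edgeR quasi-likelihood test). Right minus left differences in log2 CPM were 0.08, -0.17, -0.002 and -0.01 for numbers 1 to 4, so the largest of them was that of number 2. The intraclass correlation of right and left libraries over the 4 numbers was 0.942, where the median of all tested genes was -0.068 and 0.392% of them reached this value or more. For the other 6 genes it ran from -0.402 for Tlr3 to 0.162 for Tlr4. With 4 numbers this is a description. Over all genes, same-numbered left and right libraries did not deviate together (r from -0.137 to 0.06 in 4 pairs). Whether a number links a left and a right library at all is therefore not known, and the value cannot be read as agreement within a mouse.

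**Figure D2:**
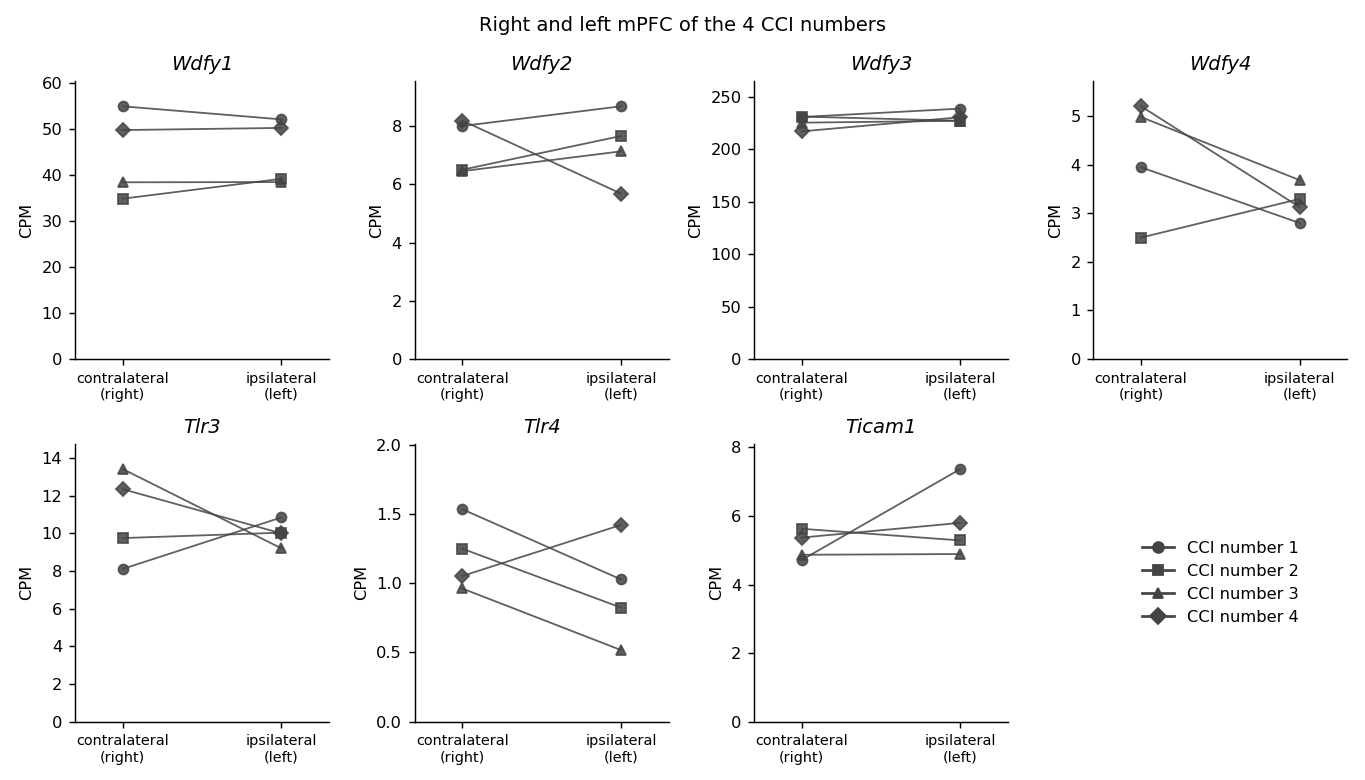
CPM (linear axes from 0) in the right (contralateral) and left (ipsilateral) mPFC library of each CCI number, 1 panel per gene; a line joins the libraries of 1 number. The lines of Wdfy1 are nearly level apart from that of number 2, with 54.9 and 52.0 CPM for number 1 against 34.8 and 39.1 CPM for number 2. Lines cross in every panel, and in that of Wdfy1 those of numbers 2 and 3 do.

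Nnt, a mitochondrial transhydrogenase gene whose transcript is known to be disrupted in C57BL/6J mice, was read as a check of substrain. It lay between 21.01 and 22.75 CPM in contralateral libraries and between 21.3 and 22.9 CPM in ipsilateral libraries. In naive libraries 1 to 4 it had 21.7, 30.9, 21.3 and 38.9 CPM, so that naive libraries 2 and 4 stood apart from the other 10. Wdfy1 in those 2 libraries was 22.5 and 22.8 CPM, beside 22.6 and 19.9 CPM in the other naive libraries. Without both of them, an alternative added after seeing the data, the log2 fold change of Wdfy1 was 1.06 on the contralateral and 1.08 on the ipsilateral side.

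The genes beside Wdfy1 on chromosome 1 were read as well. Of the 9 genes within 1 Mb that could be tested, none passed in any comparison. Among all tested genes edgeR called 0 (0.0%) in each comparison as well. The log2 fold changes of the 9 genes against naive ran from -0.66 to 0.77 on the contralateral and from -0.23 to 0.41 on the ipsilateral side. Mrpl44, which encodes a mitochondrial ribosomal protein and whose span overlaps that of Wdfy1 by 126 bases, averaged 18.4 ± 1.17 CPM in contralateral libraries, with 17.9 ± 0.64 CPM in ipsilateral and 18.6 ± 0.72 CPM in naive ones (SD, n = 4 each). Serpine2, a secreted protease inhibitor 18054 bases away, had log2 fold changes of -0.03 and -0.07 against naive on the contralateral and the ipsilateral side. Ap1s3, a subunit of a clathrin adaptor complex, had -0.45 and -0.23 at a mean of 1.85, 2.16 and 2.54 CPM in contralateral, ipsilateral and naive libraries. Scg2, a neuropeptide precursor, had -0.15 on both sides. Cul3, a ubiquitin ligase scaffold, had -0.001 and 0.07. The predicted gene Gm37902 had -0.66 and 0.41 at under 1 CPM. Gm10555, which lies within the span of Wdfy1, had a count of 0 in every library.

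**Figure D3:**
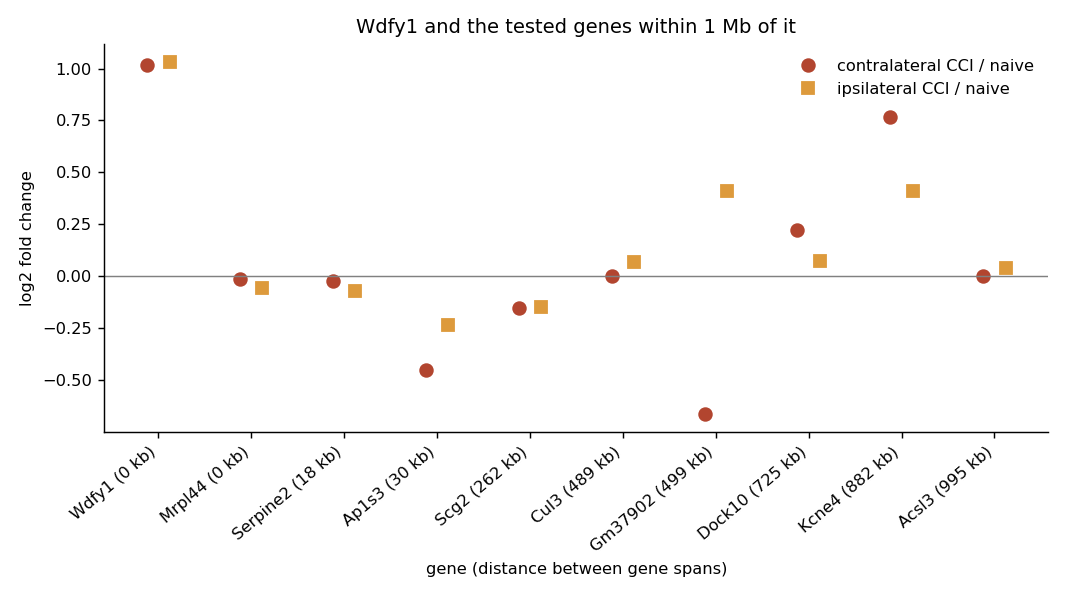
Log2 fold change against naive of Wdfy1 and of the 9 tested genes within 1 Mb, ordered by the distance in kb between gene spans; circles are contralateral and squares ipsilateral CCI. Wdfy1 stands at 1.02 and 1.03, and the nearest genes, Mrpl44 and Serpine2, lie within 0.08 of 0.

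Of the paralogs, Wdfy2 (ENSMUSG00000014547, chr14:62837690-62956886 in the deposited table) is the closest in build, with WD repeats and a FYVE domain, and encodes an endosomal scaffold that binds the kinase Akt. It had 8.005, 6.50, 6.45 and 8.19 CPM in contralateral, 8.68, 7.66, 7.13 and 5.68 CPM in ipsilateral, and 4.96, 7.36, 7.41 and 5.86 CPM in naive libraries. The 3 groups overlapped. Its log2 fold change was 0.19 on the contralateral side (95% interval -0.16 to 0.54) and 0.19 on the ipsilateral side (-0.16 to 0.53), with edgeR adjusted p-values of 1.00 and 0.972. The intervals do not hold a doubling such as that of Wdfy1. Between the hemispheres the difference was 0.0004 (-0.34 to 0.34).

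Wdfy3 (ENSMUSG00000043940, chr5:101832956-102069921, minus strand) encodes the large BEACH domain protein Alfy, a scaffold of selective autophagy that is needed for axon tracts to form in the mouse brain. It was the most abundant of the 7 genes and varied least, with 231, 231, 225 and 217 CPM in contralateral, 239, 227, 227 and 230.5 CPM in ipsilateral, and 203, 220, 241 and 225 CPM in naive libraries. The naive libraries spanned the whole range of the CCI libraries. Its log2 fold changes were 0.02 (95% interval -0.09 to 0.14) and 0.06 (-0.06 to 0.17) against naive on the contralateral and ipsilateral side, and neither interval goes past 0.17.

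Wdfy4 (ENSMUSG00000051506, chr14:32959547-33185508, minus strand) encodes a BEACH domain protein known in mice to be needed for cross-presentation of antigens by dendritic cells. It had 3.95, 2.50, 4.98 and 5.20 CPM in contralateral, 2.80, 3.30, 3.68 and 3.13 CPM in ipsilateral, and 3.01, 3.65, 2.93 and 3.17 CPM in naive libraries, from 40 to 94 counts a library. Contralateral libraries 1, 3 and 4 lay above every other library and contralateral library 2 below every other one. The log2 fold change was 0.39 on the contralateral side (95% interval -0.04 to 0.82, unadjusted p = 0.0726 and adjusted p = 1.00, edgeR) and 0.02 on the ipsilateral side (-0.42 to 0.45). Contralateral over ipsilateral it was 0.37 (-0.06 to 0.80, adjusted p = 0.617, edgeR), with right minus left differences of 0.48, -0.38, 0.42 and 0.71 in log2 CPM for numbers 1 to 4.

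Markers of most cell types also leaned to one side in the fit of contralateral against ipsilateral libraries. Over all 15808 tested genes 51.1% were above 0 in this contrast (median log2 fold change 0.005), and none passed the test. All 21 microglia markers in the table were higher on the contralateral than on the ipsilateral side in the fit; none of them passed the test, and the median log2 fold change was 0.18. Their summed level ran from 601 to 831 CPM in contralateral, from 601 to 628 CPM in ipsilateral and from 613 to 725 CPM in naive libraries, and none of them was at 0. All 10 meningeal and fibroblast markers were higher too, with a median of 0.60, and none passed; their sum ran from 29.1 to 81.9 CPM in contralateral, from 34.1 to 58.0 CPM in ipsilateral and from 51.1 to 74.1 CPM in naive libraries. The mean centred log2 CPM of the meningeal markers was 0.50, -0.997, 0.22 and 0.78 in contralateral libraries 1 to 4. In ipsilateral libraries 1 to 4 it was -0.61, 0.32, -0.74 and -0.56. For astrocyte markers it was -0.04, -0.24, 0.37 and 0.47 in contralateral and 0.07, 0.10, -0.19 and -0.45 in ipsilateral libraries. Right lay below left for number 2 alone in the meningeal markers, and for numbers 1 and 2 in the astrocyte markers. Whether a number links a left and a right library is not known. Of 11 dendritic cell markers 6 could be tested, 5 of these were higher on the contralateral side, none passed, and the defining markers Clec9a and Xcr1 had at most 0.06 CPM in any library. Markers of other cells ran the same way, namely 10 of 10 for astrocytes (median 0.19), 8 of 8 for endothelial cells (0.19), 8 of 8 for oligodendrocytes (0.13) and 7 of 8 for the striatum (0.37). Those of inhibitory interneurons were lower on the contralateral side for 7 of 8 genes (-0.19) and those of excitatory neurons for 6 of 8 (-0.10); none of these passed the test either. The part of these cells in the difference was not tested. In bulk tissue, fewer cells of a type and less RNA per cell cannot be told apart.

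Tlr3 (ENSMUSG00000031639, chr8:45395665-45410608, minus strand), the endosomal receptor for double-stranded RNA, had 8.11, 9.75, 13.4 and 12.3 CPM in contralateral libraries 1 to 4. In ipsilateral libraries it had 10.8, 10.04, 9.21 and 10 CPM, and in naive libraries 10.2, 12.1, 10.6 and 11.6 CPM. The contralateral libraries held both the highest and the lowest value of the 12. Its log2 fold change was -0.03 (95% interval -0.32 to 0.27) on the contralateral and -0.15 (-0.45 to 0.14) on the ipsilateral side, with edgeR adjusted p-values of 1.00 and 0.972. Contralateral over ipsilateral it was 0.12 (-0.17 to 0.42).

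Tlr4 (ENSMUSG00000039005, chr4:66827584-66930284, plus strand), the lipopolysaccharide receptor, was the least abundant of the 7, with 9 to 31 counts a library. It had 1.53, 1.25, 0.96 and 1.05 CPM in contralateral, 1.03, 0.82, 0.52 and 1.42 CPM in ipsilateral, and 0.95, 1.82, 1.26 and 1.29 CPM in naive libraries. The groups overlapped, and the log2 fold change was -0.14 (95% interval -0.78 to 0.49) on the contralateral and -0.49 (-1.13 to 0.16) on the ipsilateral side (adjusted p = 1.00 and 0.972, edgeR). A halving of Tlr4 on the ipsilateral side lies within the interval and is not excluded by these data. Leaving out single libraries moved the ipsilateral value to between -0.29, without ipsilateral library 3, and -0.74, without ipsilateral library 4; without naive library 2 it was -0.295. Naive library 2, the highest of the 12, was also one of the 2 libraries with the higher Nnt. Without these 2 libraries the contralateral log2 fold change was 0.13 and the ipsilateral one -0.21.

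Ticam1 (ENSMUSG00000047123, chr17:56269319-56276786, minus strand), which encodes TRIF, had 4.71, 5.63, 4.87 and 5.37 CPM in contralateral, 7.37, 5.29, 4.89 and 5.798 CPM in ipsilateral, and 4.74, 4.24, 6.10 and 5.57 CPM in naive libraries. Ipsilateral library 1 was the highest of the 12, and the groups overlapped. The log2 fold change was -0.005 (95% interval -0.33 to 0.32) on the contralateral and 0.18 (-0.15 to 0.50) on the ipsilateral side, with edgeR adjusted p-values of 1.00 and 0.972. Without ipsilateral library 1 the ipsilateral value was 0.048, and without naive library 2 it was 0.094. Contralateral over ipsilateral it was -0.18 (-0.51 to 0.14).

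**Figure D4:**
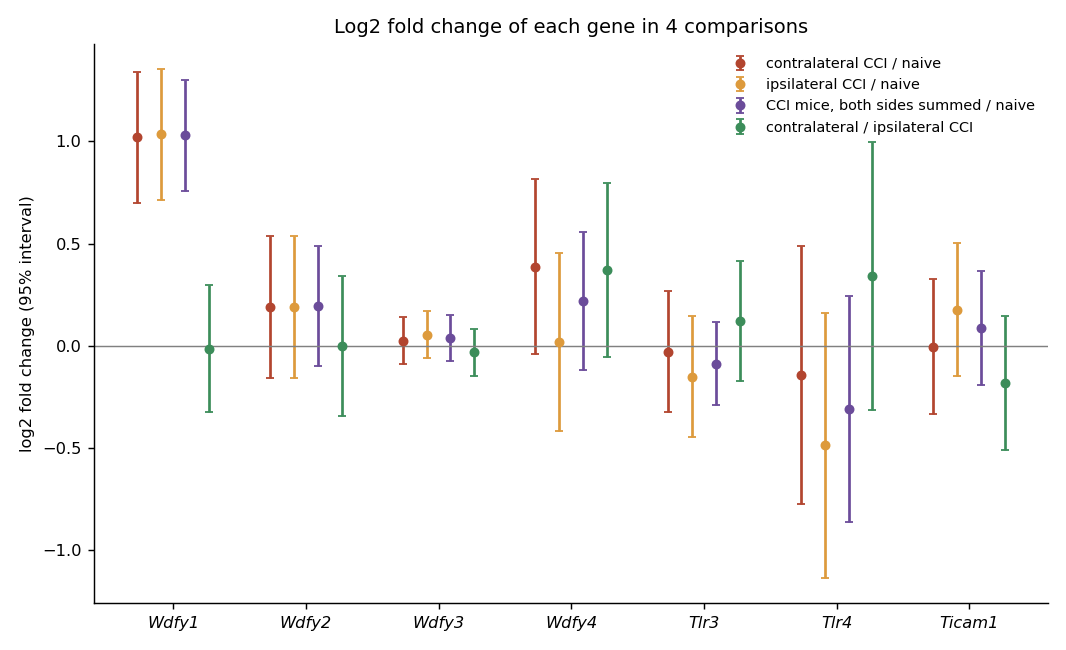
Log2 fold change with 95% interval of the 7 genes in 4 contrasts. These are contralateral CCI over naive, ipsilateral CCI over naive, CCI with both sides of each number summed over naive, and contralateral over ipsilateral CCI. The legend calls the sums CCI mice, but the labels do not state that a number is a single mouse. The 3 contrasts of Wdfy1 with naive lie at 1.02, 1.03 and 1.03. The gene was chosen on them, so their intervals are a description and carry no test. The intervals of the other 6 genes include 0 in all 4 contrasts.

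None of the 6 genes other than Wdfy1 passed an adjusted p under 0.05 in any of the 4 comparisons by edgeR, DESeq2 or limma (DESeq2 gave no adjusted p for Tlr4 ipsilateral against naive), and none had an unadjusted p under 0.05 by edgeR. The background is as low, since edgeR called 0 genes (0.0%) in each of the 4 comparisons. An unadjusted p under 0.05 was reached by 597 genes (3.78%) contralateral against naive, 763 (4.83%) ipsilateral against naive, 1322 (8.36%) contralateral against ipsilateral, and 679 of 16179 (4.20%) with both sides summed. DESeq2 called 3, 9, 0 and 31 genes in these comparisons and limma none.

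Per length, the authors' FPKM (fragment counts scaled by gene length and total counts) put Wdfy3 first, with 12.5 ± 0.51, followed by Wdfy1 with 4.55 ± 1.58 and Wdfy2 with 3.48 ± 0.56 (SD over 12 libraries). Tlr3 with 1.87 ± 0.26 and Ticam1 with 1.80 ± 0.26 came next, then Wdfy4 with 0.30 ± 0.07 and Tlr4 with 0.17 ± 0.05. Wdfy1 and Wdfy2 overlapped in range, as Wdfy1 was above Wdfy2 in 9 of 12 libraries. Tlr3 and Ticam1 could not be ordered, and Wdfy4 was above Tlr4 in each of the 12 libraries although their ranges overlapped. In FPKM Wdfy1 averaged 5.498 ± 1.23 in contralateral, 5.45 ± 0.84 in ipsilateral and 2.70 ± 0.17 in naive libraries (SD, n = 4 each), and Wdfy2 averaged 3.65 ± 0.51, 3.59 ± 0.62 and 3.19 ± 0.59 in the same order. The place of Wdfy2 in the order depends on the gene length used. The length implied by count and FPKM was 8153 bases for Wdfy1 and 2011 bases for Wdfy2, where the union of their M21 exons spans 6488 and 9185 bases. Per kb of the M21 exons, Wdfy2 had 0.76 ± 0.12 CPM and came after Tlr3 with 2.05 ± 0.28 CPM and Ticam1 with 1.80 ± 0.27 CPM (SD over 12 libraries), while Wdfy1 kept the second place with 5.72 ± 1.98 CPM.

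Other genes of the pathway did not pass the test in any comparison, and neither did any other tested gene in these fits. Of the 12 Toll-like receptors 10 were tested; 6 were higher and 4 lower on the contralateral side against naive (median log2 fold change 0.13), and 5 were higher and 5 lower on the ipsilateral side (median -0.05), beside a median of 0.00 over all tested genes in both contrasts. Tlr9, a receptor for DNA in endosomes, had the smallest unadjusted p of them (0.115, edgeR), with 1.92, 1.63 and 1.51 CPM in contralateral, ipsilateral and naive libraries. Tlr7, an endosomal receptor for single-stranded RNA, had 3.12, 2.46 and 2.97 CPM. Tlr8 and Tlr11 had at most 2 counts in a library and were not tested. Of the cofactors and trafficking factors of these receptors 9 were tested, with medians of -0.002 and -0.13 against naive on the contralateral and ipsilateral side. Lbp, which hands lipopolysaccharide to the receptor complex, had log2 fold changes of -0.79 and -0.69 at 0.67, 0.71 and 1.16 CPM in contralateral, ipsilateral and naive libraries (unadjusted p = 0.0384 and 0.0621, edgeR), and Hsp90b1, a chaperone that folds Toll-like receptors, had -0.12 and -0.03.

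The 5 adaptors of the receptors had medians of -0.10 and 0.16 against naive on the contralateral and the ipsilateral side. Myd88, the adaptor that most Toll-like receptors share, had log2 fold changes of -0.28 and -0.06, and Sarm1, a TIR domain enzyme of axon degeneration, had 0.09 and 0.41. Of 34 genes of TRIF and MyD88 signalling, 22 were higher and 12 lower on the contralateral side (median 0.04), and 14 higher and 20 lower on the ipsilateral side (median -0.03). Tbk1, the kinase through which TRIF reaches IRF3, averaged 53.2 CPM in contralateral, 55.1 CPM in ipsilateral and 48.0 CPM in naive libraries, with log2 fold changes of 0.15 and 0.20 (unadjusted p = 0.0250 and 0.00464, edgeR), and did not pass after adjustment. Peli1, a ubiquitin ligase of this pathway, had -0.07 and -0.22.

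Downstream of TRIF, 17 of 26 listed genes could be tested, and Ifnb1, Cxcl10, Ccl5, Tnf, Il6 and Il1b were among the 9 too low to test. The tested genes had medians of 0.07 on the contralateral and -0.07 on the ipsilateral side, with 11 and 6 of the 17 above 0, and none passed. Ifit3, an interferon-induced gene, had 0.40 and -0.07.

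Among the 28 tested FYVE domain genes of endosomes, 21 were above 0 on the contralateral and 18 on the ipsilateral side, with medians of 0.04 and 0.05. Wdfy1 belongs to this list and enters these counts and medians, but carries no test against naive. Of the other genes Fgd1, an exchange factor for Cdc42, had the smallest unadjusted p, with log2 fold changes of -0.15 and -0.23. The log2 fold changes of the 9 BEACH domain genes, Wdfy3 and Wdfy4 among them, had medians of 0.08 and 0.10. On the contralateral side 6 were above 0 and 3 below, and on the ipsilateral side all 9 were above 0. Of all tested genes 50.1% were above 0 on the contralateral and 49.9% on the ipsilateral side. Lyst, a regulator of lysosome traffic, had 0.13 and 0.22, and Nbeal2, known for its role in platelet granules, had 0.27 and 0.10. The 28 genes of phosphatidylinositol 3-phosphate and endosome machinery had medians of -0.03 and 0.01, with Rabgef1, an exchange factor for Rab5, at -0.27 and -0.02, and Vps26a, a retromer subunit, at -0.71 and -0.30. The 17 autophagy partners of Wdfy3 lay between -0.09 and 0.14 on both sides, with medians of -0.02 and 0.03; Tollip had 0.02 and 0.13, and Map1lc3b 0.01 and 0.13.

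**Figure D5:**
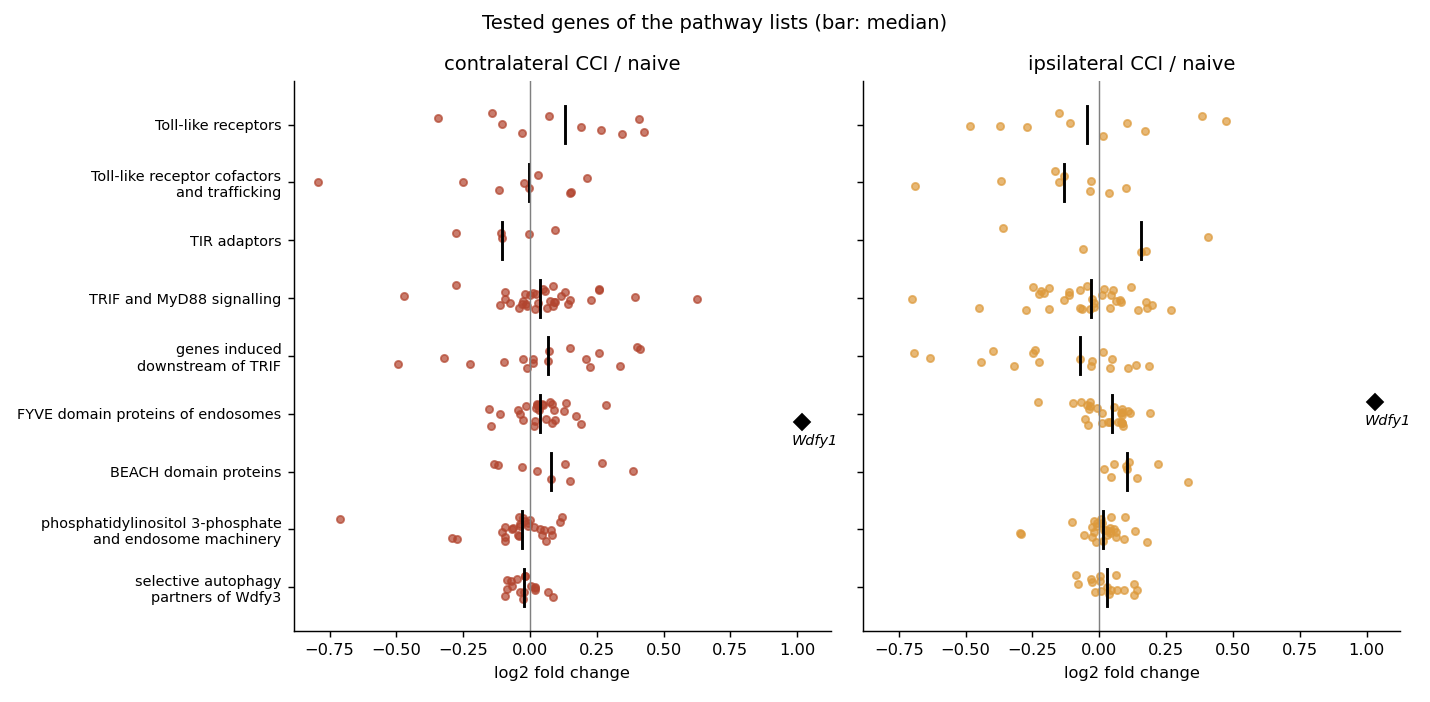
Log2 fold change against naive of every tested gene on the 9 pathway lists, contralateral CCI in one panel and ipsilateral CCI in the other; each point is a gene, the black bar is the median of its list, and the black diamond is Wdfy1. The list medians lie between -0.13 and 0.16, and Wdfy1 lies at 1.02 and 1.03.

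The patterns most like that of Wdfy1 were sought among 14556 genes by Pearson's r of log2 CPM over the 12 libraries. The CCI and naive difference, on which Wdfy1 was chosen, enters this r, so the r over the 8 CCI libraries stands beside it. The highest and lowest genes were picked by the r over 12 libraries, which include these 8. For them the r over the CCI libraries is therefore not free of the pick. Highest were Zbtb40 with 0.888 (0.709 over the CCI libraries), Ccdc82 with 0.874 (0.497), Irf2 with 0.854 (0.770), Sgsm3 (ENSMUSG00000103565) with 0.825 (0.622) and Zbtb16 with 0.818 (0.667). Sgsm3 is uncertain, since a second identifier of that symbol overlaps it and counts could be split between them. Zbtb40, a zinc finger gene, averaged 15.7 ± 0.75 CPM in contralateral, 15.98 ± 1.77 CPM in ipsilateral and 13.1 ± 0.83 CPM in naive ones (SD, n = 4 each). Lowest were Zfp189 with -0.911 (-0.751), Papl with -0.896 (-0.726), 5930412G12Rik with -0.844 (-0.659), Abi3bp with -0.841 (-0.303) and Aprt with -0.841 (-0.289). Zfp189, a zinc finger gene, averaged 6.08 ± 0.51 CPM in contralateral, 5.62 ± 0.79 CPM in ipsilateral and 8.41 ± 0.78 CPM in naive libraries. For the other members r was 0.442 (0.410 over the CCI libraries) for Wdfy2, 0.316 (0.164) for Wdfy4, 0.269 (0.152) for Wdfy3, 0.246 (0.293) for Ticam1, -0.162 (0.516) for Tlr4 and -0.276 (-0.157) for Tlr3. Tlr4 thus changed sign between the 2 sets of libraries. All these points share their libraries and scaling factors, and r over 12 libraries of 2 kinds is a description.

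Total counts ranged from 16.1 to 20.6 M per library. Markers of excitatory neurons summed to 4514 to 5564 CPM in contralateral, 4904 to 5286 CPM in ipsilateral and 5022 to 5211 CPM in naive libraries. Contralateral library 1 stood apart by its striatal markers, which summed to 393.5 CPM there and to at most 224 CPM in ipsilateral and 228 CPM in naive libraries; their mean centred log2 CPM was 1.304 there and -0.09, -0.13 and -0.20 in contralateral libraries 2, 3 and 4. It was also the library with the highest Wdfy1, and without it the contralateral log2 fold change of Wdfy1 was 0.90; the part of the dissection in that level was not tested. Oligodendrocyte markers were higher in the fit for 8 of 8 genes in both contrasts with naive (median log2 fold change 0.30 and 0.19, none past the test), with sums of 2390 to 5367 CPM in contralateral, 2389 to 4590 CPM in ipsilateral and 2637 to 3452 CPM in naive libraries. The mean centred log2 CPM of these markers was 0.56, 0.69, -0.41 and -0.46 in contralateral libraries 1 to 4. In ipsilateral libraries 1 to 4 it was 0.50, 0.10, -0.01 and -0.44. Wdfy1 in the same libraries was 54.9, 34.8, 38.4 and 49.7 CPM, and 52.0, 39.1, 38.4 and 50.2 CPM. The part of these cells in the level of Wdfy1 was not tested.

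The genes whose spans overlap Wdfy2, Wdfy3 and Wdfy4 (Gm26536, Gm20548, Gm43787, Gm42934 and Lrrc18) had 0 to 6 counts a library.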

How the data were processed

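RNA was sequenced from libraries made with an mRNA kit, per the labels' protocols. HISAT2 2.0.4 and GRCm38/mm10 are named in the submitters' processing notes; the counting program, annotation and strand setting are not stated there. The authors deposited raw counts per gene and, beside them, FPKM values scaled by gene length and total counts; 0 sample columns were left unmatched. Counts were tested in R 4.3.3 by edgeR 4.0.16 (TMM factors, filterByExpr by group, robust quasi-likelihood fit, two-sided, Benjamini-Hochberg over all tested genes, threshold 0.05). One fit held the 12 libraries in 3 groups (15808 genes); a second held 8 units, with both hemispheres of each CCI number summed (16179 genes). Alternatives were DESeq2 1.42.0, limma 3.58.1 voom, DESeq2 size factors, no filter, a replicate block, fits of the compared groups only and leaving out each library. CPM use TMM factors; FPKM were only described. The repeated exons of Wdfy1 were found by comparing the exons of annotated M21 transcripts of the gene. Sequence shared with other genes was found by exact matching against the M21 transcripts. The genome itself was not searched for further copies. The edgeR fit of the 12 libraries was run on simulated counts for contralateral against naive only, with the same spread set for every gene. The other fits and comparisons were not simulated.

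The members and lists were chosen with earlier results of these data known. Named were all members; of each list the genes past the threshold, else the 2 of smallest unadjusted p against naive; the 5 genes of highest and of lowest r with Wdfy1 (log2 CPM, prior count 2, mean of at least 1 CPM); the 6 nearest tested genes within 1 Mb; genes overlapping a member; and Nnt. Tlr7, Tlr8, Tlr11, the untested genes downstream of TRIF and single cell type markers were named after their values were seen. A gene that this rule names is not reported here.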

Additional observations from a re-analysis of the deposited data

Results flagged for a closer look

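Wdfy1 in naive library 3 had 19.9 CPM, below 22.5 to 22.8 CPM in the other 3 naive libraries, and its gap to the nearest of them was 0.892 of the group's range, past Dixon's critical value for 4 values. This was 1 of 21 groups looked at, and chance marks about 1 in 20. Without this library the log2 fold change of Wdfy1 was 0.98 on the contralateral and 0.99 on the ipsilateral side.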

How the results depend on the processing

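Over 482 recomputed values under 27 settings, 456 were read as the same and 26 changed sign, none of them past the threshold. A tested log2 fold change was the same if it kept its direction and its side of the threshold. Wdfy1 against naive carries no test, so it had to keep its direction and move by less than the SD within groups. Counts of members and the intraclass correlation of Wdfy1 were among these values and have no such direction. Changed signs were -0.0002 for Wdfy2 between the hemispheres with no filter (log2 fold change, here and below), 0.0046 for Ticam1 contralateral against naive by limma voom, and, without both naive libraries of higher Nnt (chosen after seeing the data), 0.066 for Tlr3 and 0.13 for Tlr4 contralateral against naive and 0.0081 for Tlr3 with sides summed. Without both libraries of CCI number 2 (also chosen after seeing the data), Wdfy1 between the hemispheres was 0.028, and Wdfy4 0.56 (adjusted p = 0.113, edgeR). Leaving out each library in turn gave, contralateral against naive, -0.0095 to 0.066 for Wdfy3, -0.14 to 0.092 for Tlr3, -0.29 to 0.046 for Tlr4 and -0.088 to 0.085 for Ticam1; ipsilateral against naive, -0.046 to 0.088 for Wdfy4, -0.74 to -0.29 for Tlr4 and 0.048 to 0.27 for Ticam1; and between the hemispheres -0.13 to 0.088 for Wdfy1 and -0.10 to 0.10 for Wdfy2. Counts of all genes called, 0 in the main fits, were 159 between the hemispheres without contralateral library 2 and 286 without both libraries of number 2, at most 9 in the other settings with hemispheres apart, and at most 31 with sides summed (DESeq2); the cause was not tested. Same-numbered left and right libraries did not deviate together over all genes (r from -0.137 to 0.06 in 4 pairs, against -0.155 to 0.153 in 12 other pairings). The main test between the hemispheres therefore did not pair libraries by number. The sums of both sides, the right minus left differences and the intraclass correlation do group libraries by number, and this limits them. With the replicate block Wdfy1 was 1.00, 1.02 and 1.01 against naive (contralateral, ipsilateral, sides summed) and -0.02 between the hemispheres, and 1, 1, 1 and 0 genes were called. Counts of 9 to 31 limit what can be read from Tlr4.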
